A study of Monodelphis domestica with 6 samples.

Results

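The genes of innate immunity, interferon signalling, antigen presentation and complement were followed from neonatal skin fibroblasts (neoSF) to induced pluripotent stem cells (monoiPSC) of a laboratory opossum, the marsupial *Monodelphis domestica*. A list of 42 gene symbols was looked up among the 35665 genes of the RNA-seq tables, and 37 had a row. *MYD88*, *TBK1*, *IRF7*, *STAT2* and *TAP2* were not analysed here. A normalized read count (NRC) of 20 or more in every library of a cell type was asked for, and 32 of the 37 genes met it in neoSFs or in monoiPSCs and entered the test with 13072 genes in all, while *TLR5*, *IRF5*, *IRF8*, *STAT4* and *CIITA* did not.

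The study compared the transcriptome of opossum fibroblasts with that of the pluripotent cells made from them. The 2 neoSF libraries came from primary, untreated skin cultures of 10-day-old female pups, 1 from each of the inbred strains FD2M1 and LSD1, grown for a few passages in serum-containing fibroblast medium. The 4 monoiPSC libraries came from an FD2M1 and an LSD1 line, each sampled at passage 15 and passage 25, that had been made by nucleofection of neoSFs of the same strain with OriP/EBNA episomal plasmids. The plasmids carried human *OCT4*, *SOX2*, *NANOG*, *KLF4*, *LIN28* and *cMYC* and, as the study describes, the set included a plasmid named pCE-mp53DD. The lines were kept without feeders in a serum-free medium with human LIF, heat-stable bFGF and the ROCK inhibitor Y27632, and every sample was labelled wild type. No sample was labelled as infected or stimulated with interferon. Each strain contributed 1 neoSF culture and 1 sampled line, so p-values measure the spread between these libraries, and 2 passages of a line are not independent replicates. The study writes both of 2 lines and of 4 clones. If the passages of a line came from different clones, passage and clone cannot be told apart. The neoSF libraries were sequenced in-house with short single-end reads and the monoiPSC libraries by a service with longer paired-end reads, so sequencing and cell type cannot be told apart.

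An animal cell meets viruses and bacteria first through pattern recognition receptors, the Toll-like receptors (TLRs) at the surface and in endosomes and the RIG-I-like receptors in the cytosol. Their adaptors switch on NF-kB and interferon regulatory factors (IRFs), which drive inflammatory genes and interferons. Secreted interferon is sensed by its receptors, which act through JAK kinases and STAT proteins to raise antiviral effectors and the machinery that cuts and loads peptides onto MHC class I. Complement is a cascade of mostly secreted proteases and regulators that marks and lyses targets. Fibroblasts are known to carry much of this equipment and to answer with cytokines, and pluripotent stem cells of eutherian mammals are known for a weak response to interferon.

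Library totals were 14278794 and 16982978 estimated counts in neoSFs and 28684754 to 35564261 in monoiPSCs, so 3 counts, taken here as the floor, were worth an NRC of 4.75 to 5.85 in neoSFs and 1.55 to 1.88 in monoiPSCs. The labelled cell types carried their markers. The summed NRC of 11 fibroblast markers was 1697270 and 1807840 in neoSFs and 6493 to 10837 in monoiPSCs, and that of 8 pluripotency markers was 144.5 and 225 in neoSFs and 10214 to 14263 in monoiPSCs, with *POU5F1*, *SOX2*, *NANOG*, *LIN28A* and *PRDM14* at the floor in neoSFs. Markers of blood cells, which express many of the genes described here, summed to 149 and 155 in neoSFs and 79.0 to 109 in monoiPSCs over 10 of 12 genes. In neoSFs *SPI1*, a transcription factor of myeloid and B cells, was at the floor, and *CSF1R*, the receptor of a macrophage growth factor, gave 71.2 and 77.9. Endothelial markers summed to 169 to 265 in neoSFs and 632 to 1667 in monoiPSCs, 3 measured keratinocyte markers to 56.6 to 156 and 0 to 6.73, and melanocyte markers to 257 to 407 and 4604 to 15571, with *DCT* at the floor in neoSFs and between 4372 and 15279 in monoiPSCs. The part of other cell types in the results below was not tested.

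Most of the measured changes were losses in monoiPSCs. By edgeR's quasi-likelihood test, 17 of the 32 tested genes were differentially expressed (DE, a 2-fold or larger change with a Benjamini-Hochberg adjusted p no higher than 0.05 over all genes tested), against 45.9% of all tested genes. The direction was uneven, as 16 genes were lower in monoiPSCs, where the background was 21.6%, and 1 gene, *IRF1*, was higher, where the background was 24.3%. This follows in part from the filter. *TLR2*, *TLR3*, *TLR4*, *IL1R1*, *TAP1*, *NLRC5* and *PSMB9* passed it through neoSFs alone, where they were high, and could hardly come out higher in monoiPSCs. None of the 32 passed through monoiPSCs alone. All of these but *NLRC5* and *PSMB9* were among the 16, and the values below include them. The median log2 fold change (monoiPSC over neoSF) of the 32 genes was −1.12, beside 0.08 for all tested genes. In 20 genes all 4 monoiPSC libraries lay below both neoSF libraries and in 4 they lay above, beside 37.1% and 36.1% of all tested genes. In bulk RNA, fewer cells that express a gene and less of its RNA per cell cannot be told apart.

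**Figure D1:**
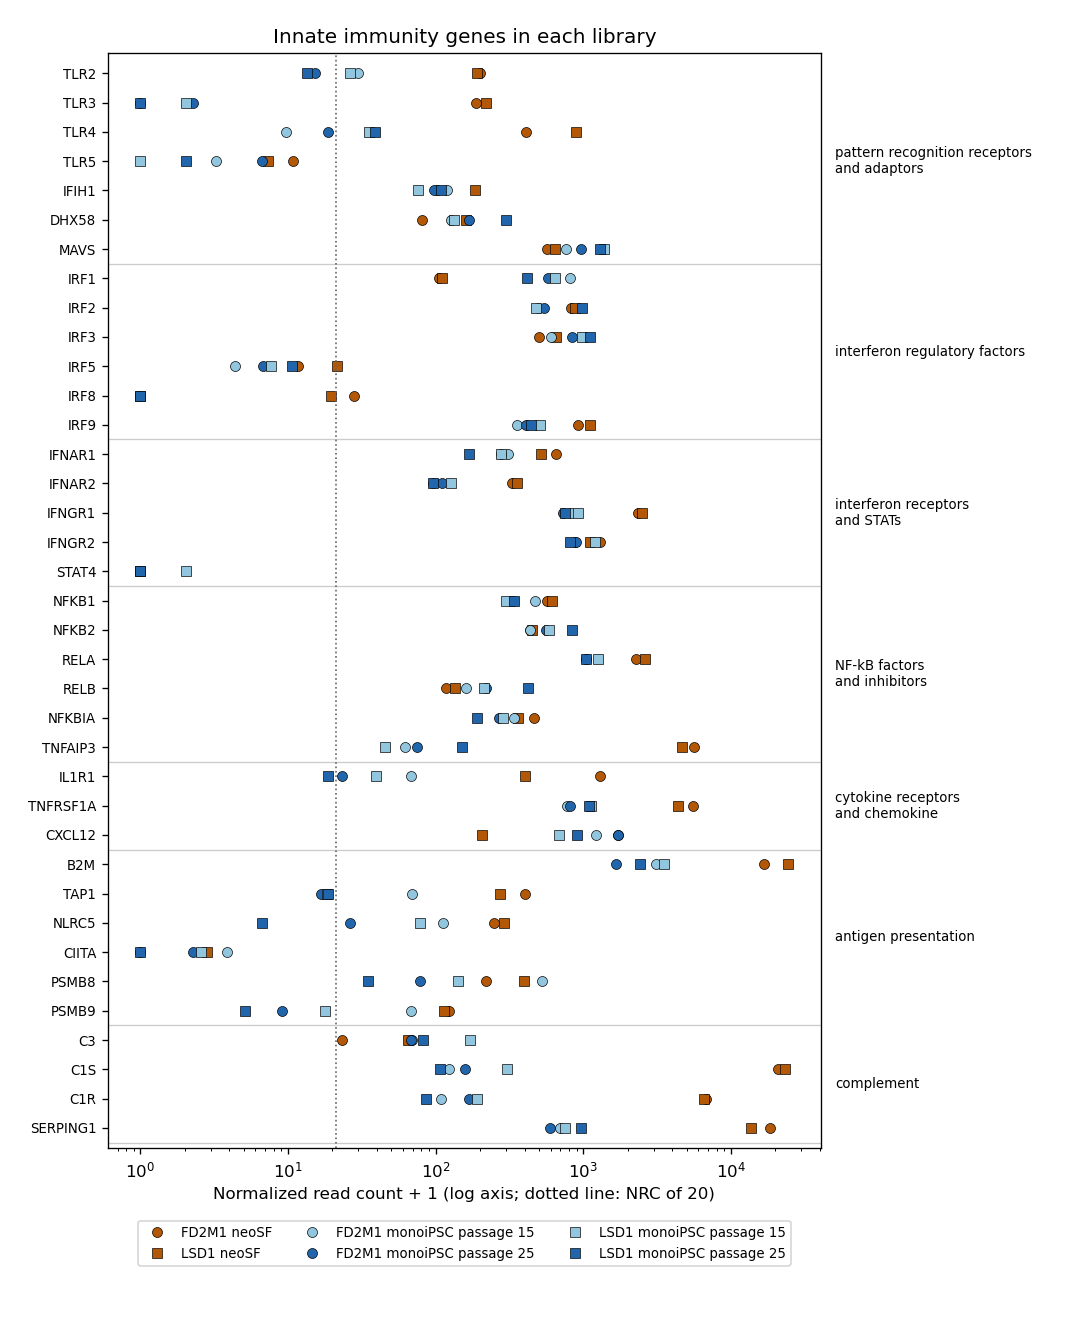
Normalized read count plus 1, on a log axis, of the 37 genes in each of the 6 libraries, grouped by role. Brown points are neoSFs and blue points monoiPSCs (light, passage 15, and dark, passage 25), circles are FD2M1 and squares LSD1, and the dotted line marks the NRC of 20 used as a filter. *C1S*, *C1R*, *SERPING1* and *TNFAIP3* show the widest gaps among abundant neoSF transcripts, and *IRF1* stands alone with all its monoiPSC points far to the right.

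Below, a pair of NRC values gives FD2M1 and then LSD1 neoSFs, and 4 values give monoiPSCs in the order FD2M1 passage 15, LSD1 passage 15, FD2M1 passage 25, LSD1 passage 25. Fold changes are log2, monoiPSC over neoSF, with the standard error (SE). NRC is not divided by transcript length, so levels are compared between libraries and not between genes.

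Among the pattern recognition receptors, the 3 tested TLRs fell in monoiPSCs, whereas the RIG-I-like receptors *IFIH1* and *DHX58* and their adaptor *MAVS* did not pass the DE call. The contrast follows in part from the filter. The 3 TLRs passed it through neoSFs alone, where they were high, while *IFIH1*, *DHX58* and *MAVS* passed it in both cell types. Not every cytosolic RNA sensor was without a DE call. *EIF2AK2* (PKR), which is in a further list below, was DE and lower (log2 fold change −1.68, SE 0.32, edgeR adjusted p = 0.00317). *TLR3*, the endosomal receptor for double-stranded RNA, had an NRC of 186 and 219 in neoSFs and of 0, 1.05, 1.26 and 0 in monoiPSCs. All 4 monoiPSC values were at the floor, which makes *TLR3* at least 101-fold lower (edgeR adjusted p = 8.77e-05). *TLR2*, a receptor for bacterial lipopeptides, gave 197 and 189.7 in neoSFs and 28.7, 25.2, 14.1 and 12.4 in monoiPSCs, a log2 fold change of −3.16 (SE 0.41, edgeR adjusted p = 0.000535). Its passage 25 libraries were below its passage 15 libraries in both lines, by ratios of 2.03 and 2.04. *TLR4*, the receptor for bacterial lipopolysaccharide, gave 411 and 887 in neoSFs and 8.68, 34.3, 17.8 and 37.6 in monoiPSCs, a log2 fold change of −4.63 (SE 0.58, edgeR adjusted p = 0.000452). Both neoSF cultures were far above the lines, LSD1 was higher than FD2M1 among neoSFs and at each passage, and without the LSD1 neoSF library the log2 fold change was −3.96. *TLR5*, the flagellin receptor, was below the filter at 9.76 and 6.34 in neoSFs and 0 to 5.65 in monoiPSCs.

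*IFIH1* (MDA5), a cytosolic sensor of long double-stranded RNA, gave 100.4 and 183 in neoSFs and 118, 74.5, 95.7 and 108 in monoiPSCs, so the groups overlapped (log2 fold change −0.42, SE 0.36). *DHX58* (LGP2), which tunes the other RIG-I-like receptors, gave 80.0 and 159 in neoSFs and 125, 132, 168 and 297 in monoiPSCs and overlapped as well (0.69, SE 0.47). *MAVS*, the mitochondrial adaptor on which these sensors converge, gave 571 and 643 in neoSFs and 767, 1377, 957 and 1288 in monoiPSCs. All its monoiPSC libraries lay above the neoSFs, and its log2 fold change of 0.95 (SE 0.27, edgeR adjusted p = 0.0165) passed the p threshold but not the fold threshold. *MAVS* was called DE when the FD2M1 line at passage 15 or at passage 25 was left out, at 1.08 and 1.01.

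The IRFs went both ways. *IRF1*, a transcription factor that induces antigen presentation and antiviral genes, was the DE gene that rose. Its NRC was 105 and 109 in neoSFs and 808, 643, 578 and 413 in monoiPSCs, a 6.08-fold difference (log2 fold change 2.60, SE 0.32, edgeR adjusted p = 0.000427). Within each line it was lower at passage 25 than at passage 15, with a log2 difference of −0.57 (SE 0.18), which did not pass edgeR's adjustment (adjusted p = 0.464). *IRF9*, the DNA-binding subunit of the complex that type I interferon activates, fell from 923 and 1104 in neoSFs to 355, 509, 406 and 439.7 in monoiPSCs, a log2 fold change of −1.15 (SE 0.19, edgeR adjusted p = 0.00157).

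*IRF3*, which is phosphorylated downstream of *MAVS* and *TLR3*, had 499 and 648 in neoSFs and 607, 974, 840.0 and 1115 in monoiPSCs (log2 fold change 0.72, SE 0.27, edgeR adjusted p = 0.0489), under the fold threshold and with overlapping groups. Against the neoSFs of its own strain each monoiPSC library was higher. *IRF2*, which is known to compete with *IRF1* at many promoters, gave 826 and 883 in neoSFs and 492, 478, 539 and 984 in monoiPSCs, with the LSD1 line at passage 25 above the neoSFs and the other 3 below (log2 fold change −0.36, SE 0.31). *IRF8*, a factor of myeloid and lymphoid cells, had an NRC of 0 in all 4 monoiPSC libraries, with at most 1 count in any, and of 27.0 and 18.5 in neoSFs, at least 11.5-fold higher than the floor in monoiPSCs, with no test because it was below the filter. *IRF5*, another factor downstream of TLRs, was also below the filter, at 10.7 and 20.6 in neoSFs and 3.37 to 9.72 in monoiPSCs.

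Of the 4 listed receptor chains, which serve type I interferon and interferon-gamma, 3 were DE and lower in monoiPSCs. *IFNGR1*, the ligand-binding chain of the interferon-gamma receptor, gave 2356 and 2511 in neoSFs and 823, 915, 729.5 and 750.1 in monoiPSCs, a log2 fold change of −1.50 (SE 0.15, edgeR adjusted p = 0.000147). Its partner *IFNGR2* gave 1302 and 1100.0 in neoSFs and 879, 1200.1, 889 and 806 in monoiPSCs, and these groups overlapped (−0.25, SE 0.20, edgeR adjusted p = 0.299). *IFNAR2*, the high-affinity chain of the type I interferon receptor, fell from 329 and 356 to 94.4, 126, 109 and 94.3, a log2 fold change of −1.59 (SE 0.24, edgeR adjusted p = 0.00101). *IFNAR1*, the other chain, gave 656 and 514 in neoSFs and 306, 275, 277 and 166 in monoiPSCs. Its log2 fold change of −1.10 (SE 0.28, edgeR adjusted p = 0.0104) lost the DE call without the FD2M1 neoSF library (−0.92, adjusted p = 0.0669) and, through the fold threshold, without the LSD1 line at passage 25 (−0.95). *STAT4*, which carries interleukin-12 signals in lymphocytes, had an NRC of 0 in 5 libraries and of 1.05 in the LSD1 line at passage 15.

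**Figure D2:**
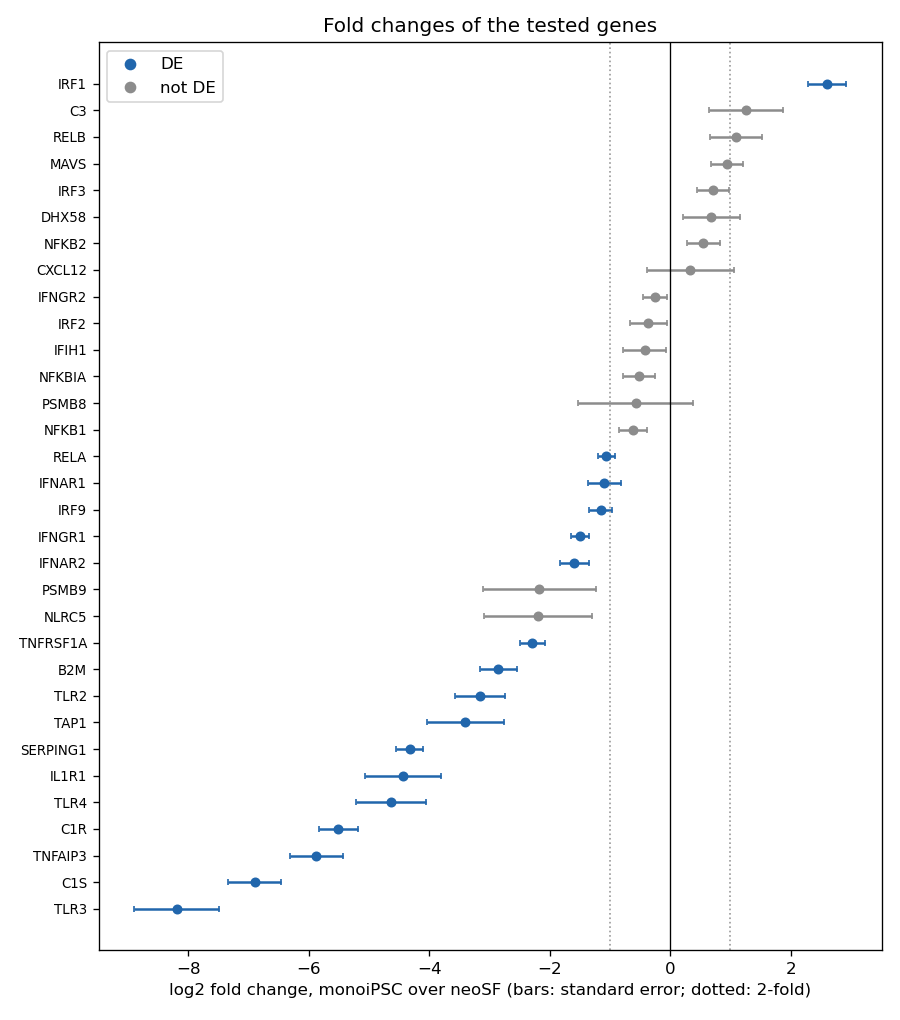
Log2 fold change (monoiPSC over neoSF) of the 32 tested genes, ordered by size, with bars for the standard error of the edgeR fit and dotted lines at a 2-fold change. Blue points are the 17 DE genes, of which *IRF1* at 2.60 is the one above 0, and grey points are the 15 genes without a DE call, of which *PSMB8*, *PSMB9*, *NLRC5* and *CXCL12* have the longest bars.

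The NF-kB group held a large fall of an inhibitor beside small changes of most subunits. *TNFAIP3* (A20), a ubiquitin-editing enzyme that shuts NF-kB signalling off and is itself an NF-kB target, had an NRC of 5597 and 4688 in neoSFs and of 61.2, 44.7, 73.1 and 149 in monoiPSCs. The difference was 58.5-fold (log2 fold change −5.87, SE 0.44, edgeR adjusted p = 5.28e-05). *RELA* (p65), the main activating subunit of the canonical pathway, gave 2282 and 2600.5 in neoSFs and 1048, 1259, 1042 and 1044 in monoiPSCs. It was 2.08-fold lower (log2 fold change −1.06, SE 0.15, edgeR adjusted p = 0.000688), just past the fold threshold, and without the LSD1 neoSF library the log2 fold change was −0.95.

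*NFKB1*, the precursor of the p50 subunit, gave 564 and 613 in neoSFs and 469, 298, 332 and 339 in monoiPSCs, and its log2 fold change of −0.61 (SE 0.23, edgeR adjusted p = 0.0477) was under 2-fold. *NFKBIA*, the inhibitor IkB-alpha, gave 464 and 360.5 against 336, 283, 269 and 190.1, lower in each monoiPSC library but not past the test (−0.52, SE 0.27, edgeR adjusted p = 0.134). The non-canonical partners had values on the other side of 0. *NFKB2*, the precursor of p52, gave 431 and 447 in neoSFs and 435, 584, 554 and 840.0 in monoiPSCs (0.55, SE 0.27, edgeR adjusted p = 0.113). *RELB*, which pairs with p52, gave 117 and 134 in neoSFs and 160.0, 211, 218 and 422 in monoiPSCs, all above the neoSFs, with a log2 fold change of 1.10 (SE 0.43, edgeR adjusted p = 0.057). *RELB* passed with the strain as a replicate block (1.05, adjusted p = 0.0489), a fit that called 46% of all tested genes, with DESeq2 and without the FD2M1 line at passage 15 (1.26).

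The receptors for the inflammatory cytokines interleukin-1 and tumour necrosis factor fell as well. *TNFRSF1A*, the widely expressed tumour necrosis factor receptor, gave 5565 and 4380.4 in neoSFs and 768, 1126, 814 and 1099 in monoiPSCs, 4.89-fold lower (log2 fold change −2.29, SE 0.20, edgeR adjusted p = 0.000101). *IL1R1*, the signalling receptor for interleukin-1, gave 1295 and 404 in neoSFs and 67.3, 38.1, 22.4 and 17.6 in monoiPSCs, 21.6-fold lower (−4.44, SE 0.62, edgeR adjusted p = 0.000748). The FD2M1 neoSFs had 3.21 times the *IL1R1* level of the LSD1 neoSFs, and the LSD1 culture was still above every monoiPSC library. Without the FD2M1 neoSF library the log2 fold change of *IL1R1* was −3.37, and without the LSD1 neoSF library −5.04.

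*CXCL12*, a chemokine that guides stem and blood cells, was higher in the FD2M1 than in the LSD1 libraries. With a single neoSF culture and a single line per strain, strain cannot be told from culture or line. Its NRC was 1716 in FD2M1 neoSFs and 204 in LSD1 neoSFs, a ratio of 8.39, and 1221, 679, 1708 and 898 in monoiPSCs. The FD2M1 line at passage 25 was thus at the level of its neoSFs, while both LSD1 libraries were above theirs. No difference between the cell types was called (0.34, SE 0.73, edgeR adjusted p = 0.706), and the value depended on single neoSF libraries, since it was 2.55 (adjusted p = 0.00943) without FD2M1 neoSFs and −0.50 without LSD1 neoSFs. Within the lines *CXCL12* was lower in LSD1 than in FD2M1 by −0.88 on the log2 scale (SE 0.16, edgeR adjusted p = 0.141).

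**Figure D3:**
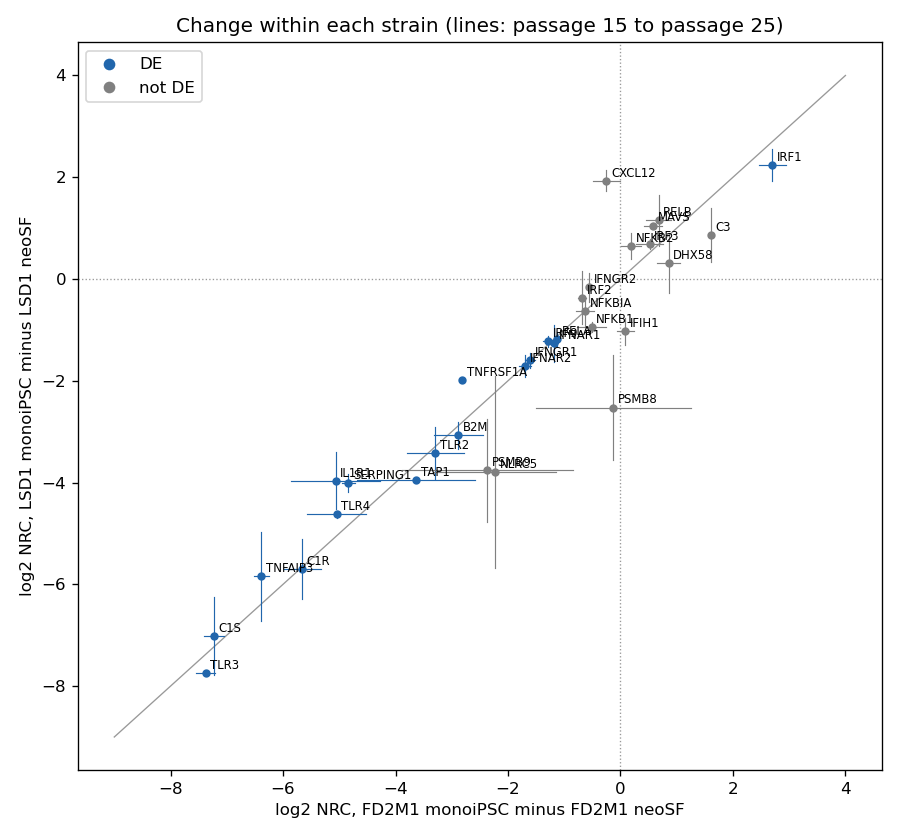
Log2 NRC of the monoiPSC line minus that of the neoSFs of the same strain for the 32 tested genes, FD2M1 on the horizontal and LSD1 on the vertical axis, with NRC under 1 set to 1. Each line spans passage 15 to passage 25 of a line with the point at their mean, blue marks DE genes, and the grey diagonal marks equal change. Most genes lie near the diagonal, while *CXCL12* has a mean of −0.25 in FD2M1 and 1.93 in LSD1, and *PSMB8*, *PSMB9* and *NLRC5* have the longest lines.

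Set against the neoSFs of their own strain, all 4 monoiPSC libraries moved in the same direction in 26 of the 32 genes, beside 79.5% of all tested genes. The exceptions were *IFIH1*, *DHX58*, *IRF2*, *IFNGR2*, *CXCL12* and *PSMB8*. The DE genes were not among them, which follows from their groups not overlapping and adds nothing to the call.

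In antigen presentation, the genes for the MHC class I light chain and the peptide transporter fell. *B2M*, beta-2-microglobulin, which pairs with every classical class I heavy chain, gave 16782 and 24475 in neoSFs and 3091, 3497, 1676 and 2427 in monoiPSCs. It was 7.22-fold lower (log2 fold change −2.85, SE 0.30, edgeR adjusted p = 0.000213), and the LSD1 line had more than the FD2M1 line at each passage. *TAP1*, a subunit of the transporter that carries peptides into the endoplasmic reticulum, gave 404 and 271 in neoSFs and 67.7, 17.4, 15.7 and 17.8 in monoiPSCs (log2 fold change −3.40, SE 0.63, edgeR adjusted p = 0.0027). The FD2M1 line at passage 15 stood above the other 3 monoiPSC libraries, and without it the log2 fold change was −4.20.

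The other genes of this group spread widely among the monoiPSC libraries. *NLRC5*, the transactivator of class I genes, gave 248 and 291 in neoSFs and 112, 77.9, 25.1 and 5.65 in monoiPSCs. All its monoiPSC libraries were lower, and with a log2 fold change of −2.19 (SE 0.89, edgeR adjusted p = 0.0646) it was not called, but it was with DESeq2 (adjusted p = 0.0194), without the FD2M1 line at passage 15 (−2.80) and without the LSD1 line at passage 25 (−1.83). *PSMB9*, a catalytic subunit of the immunoproteasome, which replaces a constitutive subunit under interferon, gave 121 and 113 in neoSFs and 67.4, 16.8, 8.17 and 4.12 in monoiPSCs (−2.17, SE 0.94, edgeR adjusted p = 0.0794). It too was called with DESeq2 (adjusted p = 0.0399), with limma (−3.06) and without the FD2M1 line at passage 15 (−3.48, adjusted p = 0.00371). *PSMB8*, another immunoproteasome subunit, gave 219.7 and 397 in neoSFs and 524, 141, 77.4 and 33.8 in monoiPSCs, so the FD2M1 line at passage 15 was above both neoSFs and the other 3 libraries were below (−0.57, SE 0.95, edgeR adjusted p = 0.618). Without that library *PSMB8* was called at −1.79 (adjusted p = 0.0422). *CIITA*, the transactivator of class II genes, had at most 2.84 in any library and was below the filter.

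**Figure D4:**
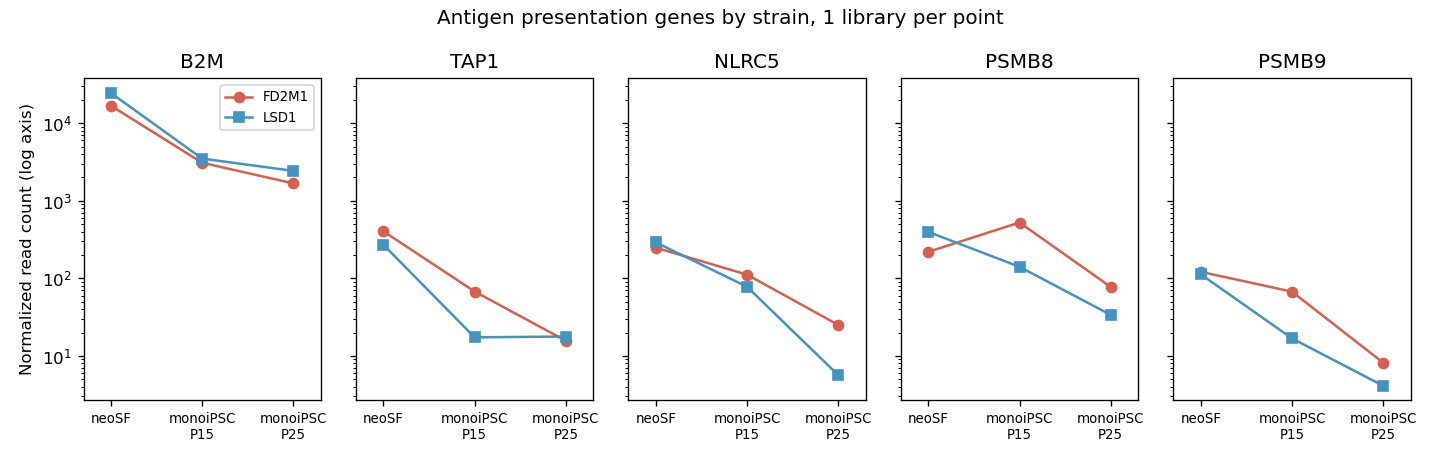
NRC on a log axis of *B2M*, *TAP1*, *NLRC5*, *PSMB8* and *PSMB9* in neoSFs and in the monoiPSC line of the same strain at passage 15 (P15) and passage 25 (P25), 1 library per point, circles for FD2M1 and squares for LSD1. Passage 25 lies below passage 15 in both lines for each gene except *TAP1*, which went from 17.4 to 17.8 in LSD1.

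Passage 25 was compared with passage 15 within the 2 lines, with the line as a covariate. Of the 25 genes that reached an NRC of 20 in each of these 4 libraries, edgeR called 0 DE, as it did for all genes (0%), and 6 (*PSMB8*, *B2M*, *IRF1*, *CXCL12*, *RELB* and *DHX58*) had an unadjusted p under 0.05, beside 9.35% of the 12252 genes tested. *PSMB8* was lower at passage 25 by −2.43 on the log2 scale (SE 0.33, edgeR adjusted p = 0.143), 6.77-fold in FD2M1 and 4.17-fold in LSD1. DESeq2, which called 0.971% of all genes, called *PSMB8* alone among the 25 (adjusted p = 5.86e-06). *B2M* differed by −0.72 (SE 0.16, edgeR adjusted p = 0.297), with passage 15 to passage 25 ratios of 1.84 in FD2M1 and 1.44 in LSD1.

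*PSMB9*, *NLRC5*, *TAP1*, *TLR2* and *IL1R1* fell under the filter for this comparison and are given as ratios of passage 15 to passage 25 with no test. *PSMB9* was 8.25 times higher at passage 15 in FD2M1 and 4.08 times in LSD1. For *NLRC5* the ratios were 4.45 and 13.8, for *TAP1* 4.31 and 0.98, for *IL1R1* 3.01 and 2.17, and for *TLR2* 2.03 and 2.04. *TLR4* was higher at passage 25 in both lines, with ratios of 0.49 and 0.91. Across the 32 genes, 12 were lower at passage 25 in both lines, beside 29.2% of all genes tested between the cell types. Of the 5 tested antigen presentation genes 4 were.

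Between the lines, edgeR again called 0 of 25 genes, and 0% of all genes, and 7 (*CXCL12*, *PSMB8*, *MAVS*, *IRF3*, *NFKB2*, *RELB* and *TNFRSF1A*) had an unadjusted p under 0.05, beside 14.2% of all genes. *PSMB8* was lower in LSD1 by −1.55 (SE 0.32, edgeR adjusted p = 0.172), and DESeq2 called it (adjusted p = 0.0172), with 1.56% of all genes called. *MAVS* was higher in LSD1 by 0.64 (SE 0.18, edgeR adjusted p = 0.246) and *IRF3* by 0.55 (SE 0.18, edgeR adjusted p = 0.271).

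Complement had the lowest median log2 fold change of the groups, −4.91 over 4 tested genes, of which 3 were DE and lower. *C1S* and *C1R* are the serine proteases of C1, the complex that starts the classical pathway. *C1S* had an NRC of 20799.8 and 23120.0 in neoSFs and of 123, 303, 158 and 105 in monoiPSCs, 119-fold lower (log2 fold change −6.90, SE 0.44, edgeR adjusted p = 3.01e-05). *C1R* had 6771 and 6572 in neoSFs and 107, 189.8, 168 and 84.5 in monoiPSCs, 45.4-fold lower (−5.51, SE 0.33, edgeR adjusted p = 2.38e-05). *SERPING1*, the inhibitor that removes both proteases from C1, had 18413 and 13711 in neoSFs and 695, 752, 596 and 958 in monoiPSCs (log2 fold change −4.32, SE 0.22, edgeR adjusted p = 1.55e-05). The proteases and their inhibitor thus fell together. None of the 3 was called between passages or lines, but edgeR called 0 of all genes there, so this does not show stable levels. The ratios of passage 15 to passage 25 were 0.78 in FD2M1 and 2.88 in LSD1 for *C1S*, and 0.64 and 2.25 for *C1R*.

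*C3*, the central component on which all complement pathways meet, did not fall. It gave 22.1 and 64.1 in neoSFs and 67.9, 168, 67.1 and 80.9 in monoiPSCs, all above the neoSFs, with a log2 fold change of 1.26 (SE 0.61, edgeR adjusted p = 0.109) that was not called. It was called with the strain as a replicate block (1.36, adjusted p = 0.0371) and without the LSD1 neoSF library (2.26, adjusted p = 0.0485).

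Of all tested genes 21.6% were DE and lower and 24.3% DE and higher in monoiPSCs, and against these shares further genes of the same pathways were counted in 6 lists, in each of which genes at the extremes of the DE genes are named. Of 25 other pattern recognition receptors and adaptors 20 had a row and 17 were tested, of which 10 were DE and lower and 0 DE and higher (median −1.12). *TLR6*, which pairs with *TLR2* and has close relatives that could share its reads, had the lowest value, −4.93 (SE 0.29), followed by *LY96* (MD-2), the partner of *TLR4* in binding lipopolysaccharide, at −4.01 (SE 0.49). The DE genes nearest 0 were *TRAF6*, a ubiquitin ligase that relays TLR and interleukin-1 receptor signals, and *TIRAP*, an adaptor of *TLR2* and *TLR4*, each at −1.12.

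All 26 other genes of interferon and NF-kB signalling had a row and 22 were tested, of which 9 were DE and lower and 2 DE and higher (median −0.45). The lowest were *TNFRSF1B*, the other tumour necrosis factor receptor, at −4.96 (SE 0.30) and *IL1RAP*, the co-receptor of *IL1R1*, at −4.91 (SE 0.42). *PTPN2*, a phosphatase that turns JAK and STAT proteins off, was higher at 1.00 (SE 0.16). Of 36 interferon-stimulated effectors 15 had a row and 13 were tested, of which 5 were DE and lower and 2 DE and higher (median −0.56). *CMPK2*, a mitochondrial nucleotide kinase, was at −2.26 (SE 0.28), while *IFI6* was at 1.89 (SE 0.41) and *UBA7*, the activating enzyme for ISG15, at 1.56 (SE 0.32).

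Of 17 other genes of antigen processing 16 had a row and 15 were tested, of which 3 were DE and lower, a share near that of all genes, and 2 DE and higher (median 0.05). *CTSS* (cathepsin S), a protease of class II presentation, was at −8.06 (SE 0.89), with 159.9 and 1626 in neoSFs and 2.10 to 3.77 in monoiPSCs. *TAPBP* (tapasin), which holds class I molecules to the transporter, was at −1.28 (SE 0.19). *PSMB7*, a constitutive proteasome subunit, was at 1.07 (SE 0.13) and *PSME2*, a subunit of a proteasome activator, at 1.01 (SE 0.21).

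Of 28 other complement genes 22 had a row and 11 were tested, of which 6 were DE and lower and 2 DE and higher (median −2.51). The lowest was *CD55*, a regulator that protects the cell surface, at −6.81 (SE 0.94). *CFB*, the protease of the alternative pathway that binds C3b, rose from 27.9 and 17.3 in neoSFs to 191, 402, 987 and 1381 in monoiPSCs (5.15, SE 1.00, edgeR adjusted p = 0.00317). *MASP1*, a protease of the lectin pathway, rose from 17.6 and 35.1 to 279, 752, 184 and 1067 (4.51, SE 0.93, edgeR adjusted p = 0.00421). In *MASP1* both LSD1 libraries were above both FD2M1 libraries, and in *CFB* both passage 25 libraries were above both passage 15 libraries.

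Of 24 inflammatory cytokines and chemokines 19 had a row and 7 were tested, of which 6 were DE and lower and 0 DE and higher (median −3.31). *IL34*, a ligand of the *CSF1R* receptor, was at −6.54 (SE 0.71), and *IL6*, a cytokine of the acute phase, was at −5.89 (SE 1.02), with 366 and 1739.9 in neoSFs and 3.05, 28.5, 2.51 and 31.9 in monoiPSCs. Over all 6 lists, 39 of 85 tested genes were DE and lower, beside 21.6% of all tested genes, and 8 DE and higher, beside 24.3%, with a median of −0.86. Some listed genes passed the filter through a single cell type, which favours its direction, such as *LY96*, *CTSS* and *IL6* through neoSFs and *CFB* and *MASP1* through monoiPSCs. How many did so was not counted. The lists were also chosen with earlier results of these data known, so these counts are descriptive.

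**Figure D5:**
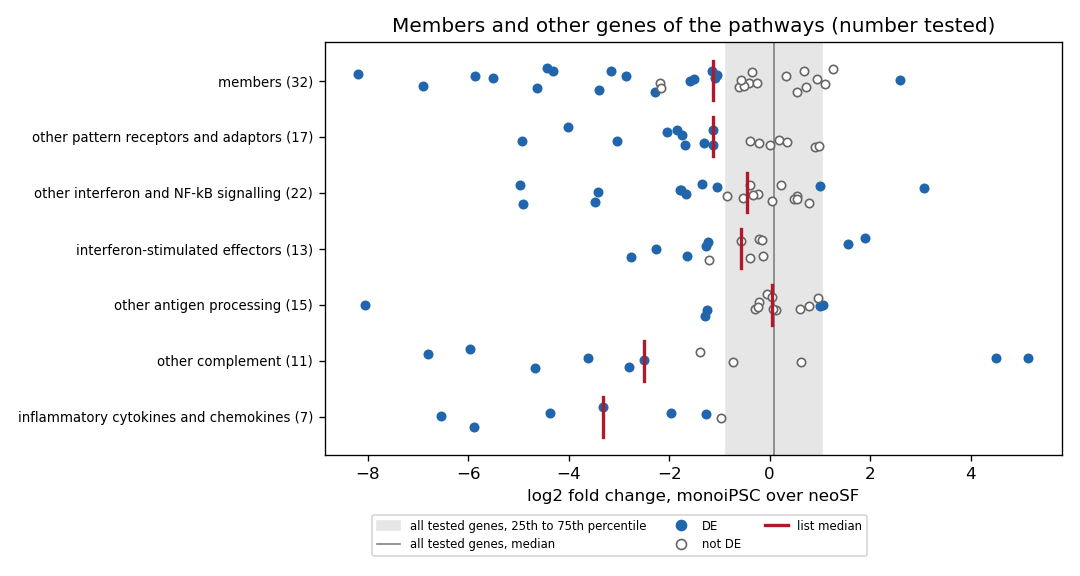
Log2 fold change (monoiPSC over neoSF) of the 32 tested genes (top row, labelled members) and of the genes tested in each of the 6 further lists, with the number tested in parentheses. Filled points are DE, open points are not, red bars are list medians, the grey line is the median of all 13072 tested genes and the grey band their 25th to 75th percentile, −0.86 to 1.05. The medians run from −3.31 for cytokines and chemokines to 0.05 for other antigen processing genes.

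Several of these genes are neighbours in the opossum genome. In the RefSeq order of the mMonDom1.pri assembly, *PSMB8*, *TAP1* and *PSMB9* followed each other on chromosome 2 with 0 protein-coding genes between them, and so did *C1R* and *C1S* on chromosome 5 of that assembly. *IFNGR1* and *TNFAIP3* had 1 protein-coding gene between them, *IFNGR2* and *IFNAR1* 1, and *IFNAR1* and *IFNAR2* 2. *C1R* and *C1S* both fell. *PSMB8*, *TAP1* and *PSMB9* each had their highest monoiPSC value in the FD2M1 line at passage 15, as did *NLRC5*, which is on another chromosome. This was not particular to them. The same library was also the highest for *TLR2*, *IFIH1*, *IRF1*, *IFNAR1*, *NFKB1*, *NFKBIA* and *IL1R1*, and the share among all genes was not counted. Within the cluster on chromosome 4 *IFNAR1* and *IFNAR2* were DE and *IFNGR2* was not.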

How the data were processed

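RNA from 2 neoSF and 4 monoiPSC samples was sequenced. For the neoSF libraries the study names both a stranded TruSeq technology and the TruSeq RNA kit v2, and the labels give kit v2 for every sample. The authors aligned reads to MonDom5 with StrandNGS, filtered them by quality, mapping and multiple mapping, and counted reads on RefSeq genes. The deposited raw values are estimated counts, since 85.3% of those above 0 were not whole within 0.001, and were rounded here. A second deposited table holds DESeq-normalized log2 values, from which the NRC was taken. The labels' processing notes name bcl2fastq and DESeq. How the 2 reads of a pair were counted is not given in the sources used here. Whether counting used strand is not given either, so values of overlapping genes are uncertain. An NRC under 1 is 0 in the deposited table.

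Genes whose NRC reached 20 in each neoSF library or in each monoiPSC library were tested with edgeR 4.0.16 (R 4.3.3, glmQLFit and glmQLFTest, TMM scaling), without a block, and were DE where they changed 2-fold or more with an adjusted p (Benjamini-Hochberg) no higher than 0.05. The SE is the log2 fold change divided by the square root of F. Passage and line were tested within the 4 monoiPSC libraries, each with the other as covariate. A gene with at most 3 counts in every library of a group was at the floor. Its fold is a bound, on TMM-scaled counts, against 3 counts in the library of that group where they weigh most. The bound covers counting error only. Ratios of passages use NRC. The groups came from the sample titles. DESeq2 1.42.0, limma 3.58.1, RLE scaling, no filter, the strain as a replicate block and each library left out in turn were the alternatives. The procedure was tested on simulated data.

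The monoiPSC lines were made from neoSFs of their own strain, so strain pairs the samples by design. Deviations from the group means correlated across 13072 genes at r = 0.041 and 0.010 between FD2M1 neoSFs and the FD2M1 line at passages 15 and 25, and at 0.078 and −0.016 for LSD1. The genes and all lists were chosen with earlier results of these data known. Every listed gene is accounted for, and in each further list the 2 highest and the 2 lowest log2 fold changes among DE genes are named, except a few genes that are not reported here. All 37 gene numbers matched a RefSeq table of mMonDom1.pri, an assembly other than MonDom5, which was used for gene order alone, so no coordinates are given.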

Additional observations from a re-analysis of the deposited data

Results flagged for a closer look

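In 3 of the 32 tested genes, 1 of the 4 monoiPSC libraries stood apart by Dixon's ratio, the gap to the nearest library over the whole range of log2 NRC, whose critical value for 4 libraries chance passes in about 1 of 20 groups. *RELA* was highest in the LSD1 line at passage 15 (ratio 0.966, NRC 1259), with the other 3 libraries between 1042 and 1048. *TAP1* was highest in the FD2M1 line at passage 15 (ratio 0.914, NRC 67.7). *IRF2* was highest in the LSD1 line at passage 25 (ratio 0.833, NRC 984), where it was above both neoSFs.

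*CXCL12* was higher in the LSD1 line than in its neoSFs, but not in the FD2M1 line. The FD2M1 monoiPSC libraries had an NRC of 1221 at passage 15 and 1708 at passage 25, beside 1716 in FD2M1 neoSFs, with a mean log2 NRC difference of −0.249, and both LSD1 libraries were above LSD1 neoSFs, with a mean difference of 1.93. There is 1 neoSF library per strain, and the difference between strains was not tested.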

How the results depend on the processing

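The count of 17 DE genes was 17 to 22 with each monoiPSC library left out in turn and 18 without the low-value filter. The share of all genes was not counted for these fits. It was 17 with RLE scaling, which called 3045 of 13072 genes higher and 2928 lower, beside 3176 and 2824 in the main fit. DESeq2 gave 20 (3135 and 2947 of all genes) and limma on the deposited log2 values 18 (3005 and 3021). The replicate block of strain gave 19 (46% of all genes, beside 45.9% without it), which added *RELB* and *C3* and changed no other call. Of the 17 genes, 15 were called under all 11 alternatives, the exceptions being *IFNAR1* and *RELA*. Of the 15 genes not called, 7 were called under at least 1 alternative (*MAVS*, *RELB*, *CXCL12*, *NLRC5*, *PSMB8*, *PSMB9* and *C3*) and 8 under none. The sign reversed without LSD1 neoSFs for *IFIH1* (0.10) and *CXCL12* (−0.50), and for no other gene or alternative; over the libraries left out these genes ranged from −0.80 to 0.10 and from −0.50 to 2.55. DESeq2 called 1 gene, *PSMB8*, in the passage comparison and 1, again *PSMB8*, in the line comparison, where edgeR called 0. The cause was not tested. Leaving out libraries was not run for passage or line, as no residual degrees of freedom remain.

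The neoSFs are 2 cultures with lower totals than the monoiPSCs, and genes near the floor, such as *IRF8* and *CIITA*, are limited by it. Platform and cell type cannot be told apart.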
